A study of Mus musculus with 16 samples.

Results

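The genes described here encode the proteins of the cytosolic ribosome. Members were taken from the deposited count table as protein-coding genes of the GENCODE mouse M21 annotation whose symbols begin with Rpl or Rps and a number, or are Rpsa, Rplp0, Rplp1 or Rplp2. Pseudogene symbols and the S6 kinases were left out, and a sum of at least 160 counts over the 16 libraries was required. This gave 83 of the 52636 gene IDs in the table, out of 86 coding genes with such symbols. The members were chosen by symbol and by their counts summed over all libraries, so their being expressed is no finding. No difference between groups entered this rule, but the gene group was chosen with earlier results of these data known. By role, 42 members encode large subunit proteins, 3 the stalk, 31 small subunit proteins and 6 paralogs of subunits (Rpl7l1, Rpl10l, Rpl22l1, Rpl36al, Rpl39l and Rps27l). The remaining member, Rps19bp1, matches the symbol rule but encodes a binding partner of RPS19 and not a subunit. Just inside the limit stood Rpl36al with 247 counts, and outside it Rpl24 with 126, Rpl3l with 103 and Rps27rt with 17.

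All 16 libraries came from the mouse line CRAFR26, embryonic stem cells that carry an inducible c-RAF construct and had been taken to the pluripotent state called RSC in the labels. Routine medium was N2B27 with IWP2, the MEK inhibitor PD03 and LIF, and every group had spent the last 48 h before induction in 250 nM of the FGF receptor inhibitor PD17 in place of PD03. Cells of the group 0h received no 4OHT (4-hydroxytamoxifen), those of 2h and 4h had 250 nM 4OHT for 2 h or 4 h, and those of rev had it for 4 h and then a MEK inhibitor for 2 h, at a dose the labels do not give. There were 4 libraries per group, 2 of clone 4 and 2 of clone 8, and only these 2 clones stand for the line. The effect of the inhibitor at rev and that of 2 further hours in culture cannot be told apart.

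A ribosome needs each of its proteins in nearly the same amount, and the genes for them are among the most highly transcribed of a growing cell. Their mRNAs carry a terminal oligopyrimidine (TOP) motif, a run of C and T right at the 5′ end, through which mTOR and LARP1 control translation without a need for new mRNA. ERK and its kinase RSK phosphorylate regulators of the same machinery, and MYC is a known activator of ribosomal protein and ribosome assembly genes. The comparisons therefore ask whether a rapid rise in ERK activity in pluripotent cells, and its withdrawal, changed the mRNA levels of this large and coordinated gene group.

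Start sites are shown for 7 members that appear in the comparisons below, to let the runs of C and T near the start be seen. The windows run from 10 bases before to 20 bases after the annotated start (RefSeq, GRCm38.p6), and capitals mark each run of 5 or more C and T.
Rps10, chr17:27635225-27635254, minus strand: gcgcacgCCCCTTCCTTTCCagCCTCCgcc
Rps15a, chr7:118116128-118116157, minus strand: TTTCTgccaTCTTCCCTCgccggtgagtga
Rps26, chr10:128626487-128626516, minus strand: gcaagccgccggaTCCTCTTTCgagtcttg
Rplp2, chr7:141447641-141447670, plus strand: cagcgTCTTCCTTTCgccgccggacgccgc
Rpl28, chr7:4792955-4792984, plus strand: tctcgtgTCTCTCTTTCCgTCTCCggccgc
Rpl39, chrX:37085203-37085232, minus strand: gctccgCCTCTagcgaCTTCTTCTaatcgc
Rpl39l, chr16:10170218-10170247, plus strand: aggCCTTTCCggaTTTCCggtggtcgccat
The longest run is 7 bases in Rpl39l and 8 bases or more in the others shown. In Rps26, Rpl39 and Rpl39l the annotated start is not a C. RefSeq promoter windows matched 63 of the 83 members. A run of at least 8 C and T between 10 bases before and 40 bases after the start was found in 39 of the 63 (61.9%), against 19.9% of all 27025 genes with a window. A C at the annotated start itself, followed by 4 or more C or T, was found in 13 (20.6%), against 3.01% of all genes.

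Promoters of the members also often hold the letters CGGAAG, the core bound by ETS factors, a transcription factor family that includes targets of ERK. These 30-base windows show it in capitals in members that are described below by their level or their change.
Rpl4, chr9:64173316-64173345, plus strand: aggggcaggatgCGGAAGacgagtggaagg
Rps12, chr10:23787302-23787331, minus strand: cgctcctaaaggCGGAAGtggaaactccta
Rps10, chr17:27635255-27635284, minus strand: agccgcgcagccCGGAAGagacgctgcgcc
Rpl39l, chr16:10170125-10170154, plus strand: atttgccgtaccCGGAAGcgctggaagcta
In windows of 300 bases (250 before and 50 after the start), searched on both strands, CGGAAG was found in 43 of 63 members (68.3%) and in 18.8% of all genes. The E-box CACGTG, to which MYC and its partner MAX bind, was found in 6 of 63 (9.52%) and in 8.09% of all genes. A match describes letters only, and no binding was measured here.

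Library totals were 4.31 to 10.4 M counts. Total RNA had been depleted of ribosomal RNA, but the 8 features with a share above 1% still held 46.7% to 78.9% of a library, which left 1.30 to 5.46 M counts for all other genes. The library with the least, rev clone 8 library 1, stood apart: 35 of the 83 members had their lowest level of all 16 libraries there, and the other library of that clone and group held the highest level of 21. Results that change without this library are given both ways. The 10 pluripotent cell markers summed to 1103 to 1895 CPM (the usual CPM unit, a gene's counts relative to all counts on the kept genes of its library, scaled by edgeR's TMM factors) in every library, against 0.613 to 3.60 CPM for 7 fibroblast markers and 3.06 to 7.18 CPM for 6 endoderm markers. All 10 genes of an ERK feedback and immediate-early list were higher at 2h and at 4h, where 9.49% and 7.35% of all genes were. At rev 9 were lower than at 4h, where 5.1% of all genes were. The change from 0h was called lower in clone 8 than in clone 4 for 3 of the 10 at 2h and 7 at 4h. Of all genes, 5.01% and 3.69% had such a call. The list's median clone 8 minus clone 4 value at 4h was -2.51 log2, so its rise differed between the clones. Nothing in the labels says that libraries 1 and 2 of a clone came from separate cultures, so the p-values measure the spread between these libraries.

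The 83 members held 1.18% of all counts on average (0.578% to 1.66%), and 3.03% ± 0.199 (SD, n = 16) of the counts outside the 8 largest features. That second share was 3.05% ± 0.136 (SD, n = 4) at 0h, 2.96% ± 0.220 at 2h, 3.07% ± 0.232 at 4h and 3.04% ± 0.261 at rev. The groups overlapped, and their means lay closer together than the libraries of a group. In this rRNA-depleted RNA the levels of single members were far from equal. Per kb of the principal transcript, the 76 subunit genes ranged from 29.2 CPM (Rpl13a) to 513 CPM (Rpl4), with a median of 177 CPM. The 3 highest were Rpl4 at 513 ± 39.1 CPM per kb (SD, n = 16), Rplp1 at 448 ± 57.0 and Rps12 at 435 ± 46.8, whose ranges over libraries overlap. RPL4 lines the peptide exit tunnel of the large subunit and RPS12 sits in the head of the small subunit.

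**Figure D1:**
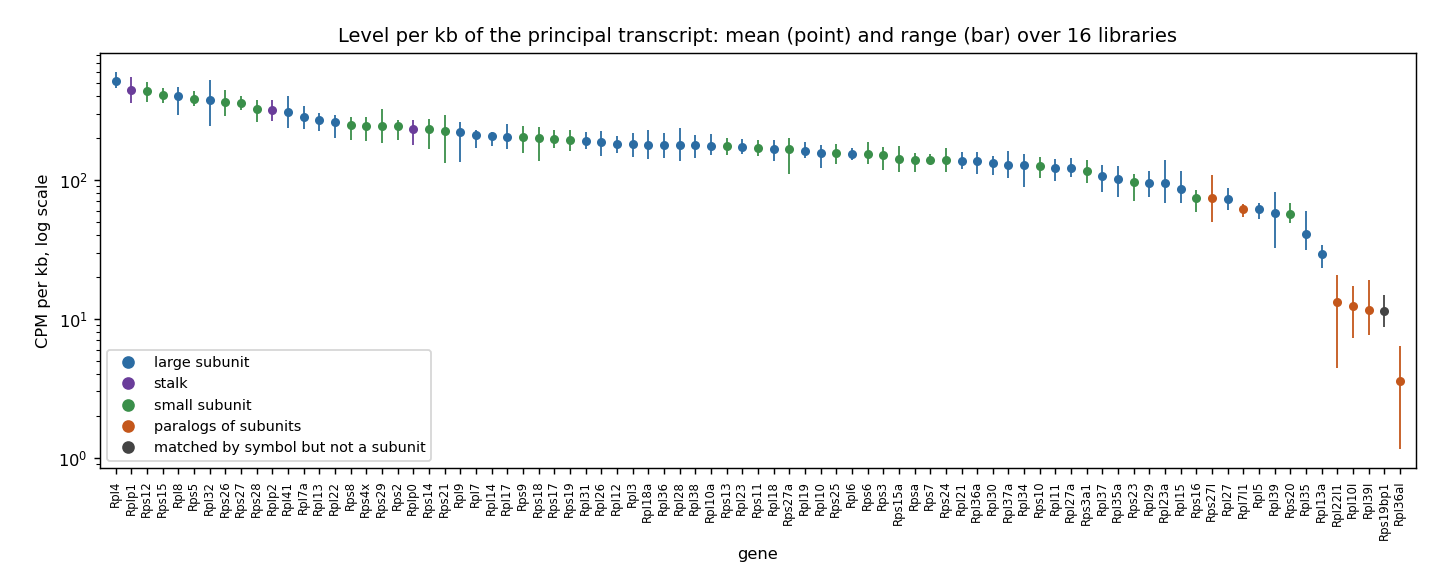
Level of each of the 83 members in CPM per kb of the principal transcript (log axis), with the mean as a point and the range over the 16 libraries as a bar, coloured by role. The paralogs Rpl22l1, Rpl10l, Rpl39l and Rpl36al and the non-subunit Rps19bp1 form the low end, at 3.59 to 13.1 CPM per kb.

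The paralogs stood below the subunits they resemble, each by a wide margin. Rpl39l, known from testis and some stem cell and tumour lines, had 11.6 ± 3.34 CPM per kb (SD, n = 16) against 57.4 ± 13.7 for Rpl39. Rpl22l1 stood at 13.1 ± 3.67 against 263 ± 27.0 for Rpl22, and Rpl36al at 3.59 ± 1.44 against 136 ± 14.96 for Rpl36a. Rpl10l, a copy of Rpl10 best known in male germ cells, had 12.3 ± 2.88 against 157 ± 13.9. Rps27l, known as a target of p53, had 74.4 ± 15.2 against 358 ± 27.1 for Rps27. Rpl7l1, whose protein acts in assembly of the large subunit, had 61.4 ± 3.91 against 211 ± 14.8 for Rpl7, the pair with the smallest ratio. None of these pairs overlapped in range over the 16 libraries.

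Levels of ribosomal protein genes are hard to count exactly, since the mouse genome holds many processed copies of them. Annotated pseudogenes with these symbols held 31319 counts in all, against 1502956 on the members. Over the members a median of 22.7% of all 50-base stretches of a transcript recur in transcripts of other genes. That share was 60.0% or more in Rpl35, Rpl36, Rpl23a, Rps3a1 and Rplp1, so their counts are uncertain, while Rpl39l and Rps19bp1 had 0. Exon sequence is shared with another annotated gene in 38 members, in 19 with one on the opposite strand, and the strand setting of the counting is not given in the sources used here. Rpl13a, for example, shares 35.4% of its exon length with 3 other genes, among them Snord33. In a bulk sample, fewer cells of a type and less RNA per cell cannot be told apart.

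Across libraries the members varied little. The median coefficient of variation of CPM over all 16 libraries was 10.4% for the members, 22.5% for all 12742 genes tested and 13.8% for the 3102 genes at least as abundant as the lowest subunit gene. For the 76 subunit genes alone it was 10.2%. The 3102 genes were not matched to the members in level. Their lower limit was 30.5 CPM, while the median subunit gene stood at 124 CPM. In 72 of the 76 subunit genes the highest library was less than 2 times the lowest. Rps7 was the steadiest, at 107 to 125 CPM, followed by Rpl6 at 176 to 215 CPM. The 4 subunit genes with a wider range were Rpl32 (126 to 273 CPM), Rpl39 (19.7 to 49.8 CPM), Rps21 (51.8 to 115 CPM) and Rpl23a (38.4 to 77.5 CPM). In rev clone 8 library 1 lay the lowest value of Rpl39 and of Rps21 and the highest of Rpl23a, as the map of all members by library shows, whereas Rpl32 followed the clone.

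**Figure D2:**
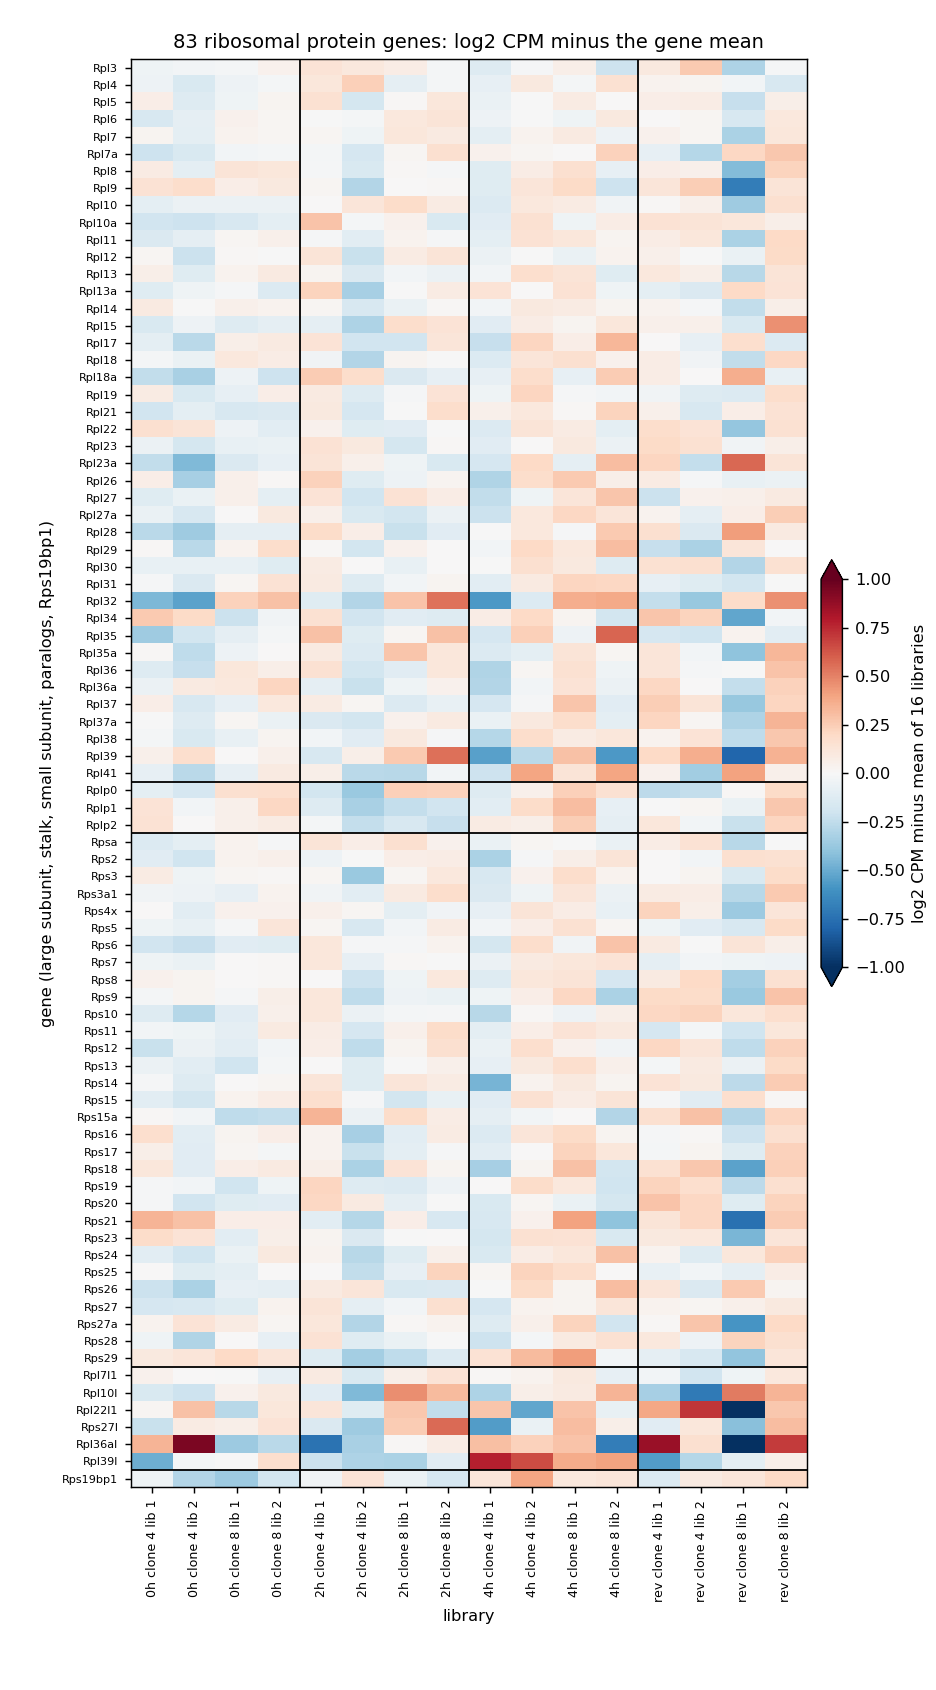
Map of the 83 members (rows, by role) in the 16 libraries (columns, by group and clone), as log2 CPM minus the mean of each gene. Most cells are pale, rev clone 8 library 1 holds the lowest value of 35 members, Rpl39l is high in all 4 libraries of 4h, and Rpl32 alternates with the clone.

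The first comparison asked what 2 h of ERK induction did. Of the 83 members, 2 were lower at 2h than at 0h with edgeR's quasi-likelihood test at an adjusted p under 0.05, and none was higher. Across all genes tested, 17% were called, 9.49% higher and 7.48% lower. An unadjusted p under 0.05 was reached by 10 members, 7 higher and 3 lower, and DESeq2 also called 2 lower and none higher. The members that fell were Rps29, of the head of the small subunit, and Rplp1, an acidic stalk protein that helps to recruit elongation factors.

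Rps29 (chr12:69157722-69159186) stood at 101 and 103 CPM in the clone 4 libraries of 0h and at 109 and 103 CPM in those of clone 8. At 2h the values were 86.5 and 74.6 CPM in clone 4 and 79.5 and 85.9 CPM in clone 8. The groups did not overlap, and the fall by 0.35 on the log2 scale had an SE of 0.10 and an adjusted p of 0.0259. Rplp1 (chr9:61913284-61914542) was at 243 and 218 CPM in clone 4 and 229 and 256 CPM in clone 8 at 0h, and at 203, 178, 188 and 194 CPM at 2h. It was lower in all 4 libraries of 2h, by 0.31 on the log2 scale (SE 0.096, adjusted p = 0.0316). Its stalk partner Rplp2 had a log2 change of -0.23 (adjusted p = 0.0928) and Rplp0, which anchors the stalk, -0.03, so neither passed the test. With library totals in place of TMM scaling, or with no clone covariate, neither Rps29 nor Rplp1 was called. Rps29 was also lost without 0h clone 4 library 1, 0h clone 8 library 1, 2h clone 4 library 2 or 2h clone 8 library 1, and Rplp1 in 5 of 16 fits without 1 library.

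After 4 h the called members were 2 higher and none lower than at 0h, against 12.9% of all genes called, 7.35% higher and 5.56% lower. An unadjusted p under 0.05 was reached by 10 members, all with a positive change. Rpl39l (chr16:10170226-10174911), the paralog of Rpl39, was at 4.40 and 6.06 CPM in clone 4 and 6.12 and 6.90 CPM in clone 8 at 0h. At 4h it reached 10.5 and 9.65 CPM in clone 4 and 7.94 and 8.12 CPM in clone 8. Every 4h library lay above every 0h library, and the rise was 0.60 ± 0.17 log2 (SE), with an adjusted p of 0.0241. Behind these values are 22 to 79 counts per library. Without 0h clone 4 library 1, 0h clone 8 library 1 or either 4h library of clone 4 the adjusted p passed 0.05, while the change stayed between 0.48 and 0.69 over all 16 libraries left out in turn. Fits of 1 clone gave 0.92 log2 for clone 4, with an edgeR adjusted p of 0.00889, and 0.31 log2 for clone 8, with one of 0.376. The difference between the clones did not pass the test (adjusted p = 0.318).

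Rps26 (chr10:128624534-128626747), whose protein lies at the mRNA exit channel of the small subunit, had 211 and 196 CPM in clone 4 and 232 and 230 CPM in clone 8 at 0h. At 4h it had 245 and 279 CPM in clone 4 and 249 and 303 CPM in clone 8. The groups did not overlap, but the change of 0.31 ± 0.10 log2 passed the test narrowly (adjusted p = 0.0484) and did not do so in 10 of 16 fits that left out 1 library. The group 4h also differed from 2h in 3 members, all higher, where 12.1% of all genes were called, 5.78% higher and 6.36% lower. Rpl39l rose by 0.78 ± 0.16 log2 (adjusted p = 0.0055) from 2h values of 5.32, 4.98, 4.94 and 5.68 CPM. Rps29 was at 105, 118, 127 and 93.0 CPM at 4h, above every 2h library, with a log2 change of 0.44 (adjusted p = 0.0109). Rplp1 was at 207, 252, 275 and 210 CPM, a log2 change of 0.31 from 2h (adjusted p = 0.0433), which brought its mean to 236 ± 33.2 CPM (SD, n = 4), the same as the 237 ± 16.6 CPM of 0h. The changes of Rps29 and Rpl39l from 2h to 4h passed the test in each of the 16 fits without 1 library, and that of Rplp1 in 9.

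**Figure D3:**
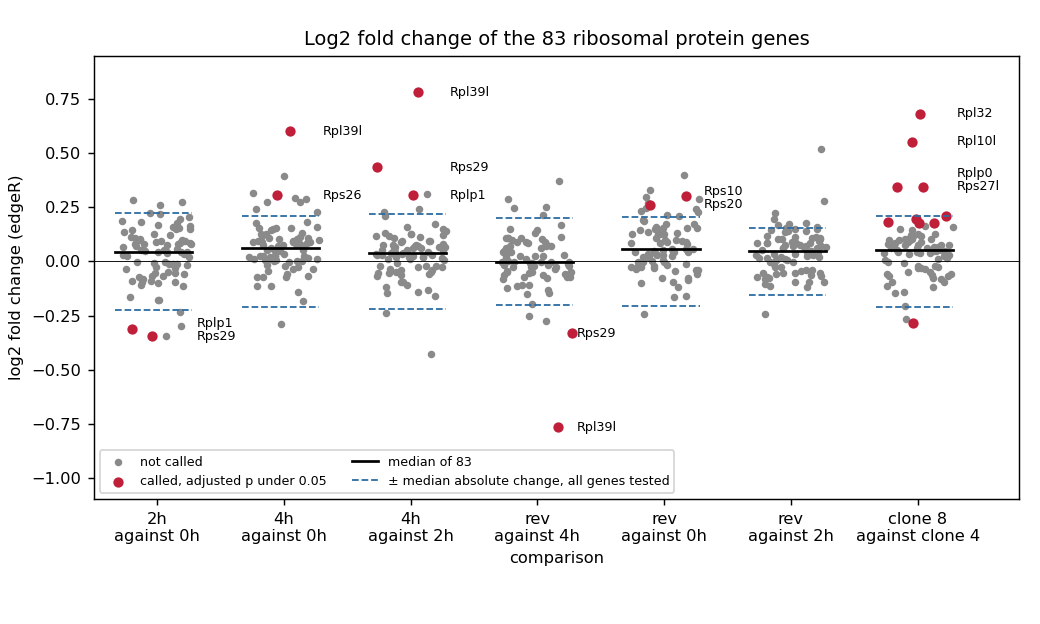
Log2 fold change of each member (points) in 7 comparisons, with called members in red, the median of the 83 as a black line and the median absolute change of all 12742 genes as dashed lines on both sides of 0. The members' medians lie between 0 and 0.06, and Rpl39l, Rps29, Rpl32 and Rpl10l reach farthest among the called ones.

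The MEK inhibitor comparison, rev against 4h, called 2 members lower and none higher, against 9.61% of all genes called, 4.5% higher and 5.1% lower. Rpl39l was at 4.18, 5.04, 5.75 and 6.40 CPM at rev, below all 4 libraries of 4h. It fell by 0.77 on the log2 scale (SE 0.17, adjusted p = 0.00743), and the call stood in each of the 16 fits without 1 library, where the change was -0.88 to -0.64. Fitted by clone, the change was -1.12 log2 in clone 4 (adjusted p = 0.000731) and -0.37 in clone 8, where edgeR did not call it (adjusted p = 0.359). A test of clone 8 against clone 4 in this change had an adjusted p of 0.114. Its rev mean of 5.34 ± 0.953 CPM (SD, n = 4) lay within 1 SD of the 5.87 ± 1.05 CPM of 0h (log2 change -0.16, adjusted p = 0.612). Rps29 had 89.1, 84.6, 72.1 and 103 CPM at rev, which overlaps 4h, with a lower value in 3 of 4 libraries numbered alike. Its log2 change of -0.33 had an adjusted p of 0.0482 and lost its call in 13 of 16 fits without 1 library, the one without rev clone 8 library 1 among them. Without that library 3 members were called, with Rpl39 and Rps20 higher and Rpl39l lower, where 9.41% of all genes were called.

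Rpl39, the subunit that Rpl39l resembles, showed other values. It was at 35.4, 38.4, 34.1 and 35.2 CPM at 0h, at 30.5, 35.5, 40.9 and 49.8 CPM at 2h, at 23.3, 28.2, 41.7 and 22.8 CPM at 4h and at 39.2, 43.8, 19.7 and 43.4 CPM at rev. Its changes did not pass the test in any comparison between groups over both clones, with -0.29 ± 0.21 log2 at 4h against 0h (adjusted p = 0.391). Fitted alone, clone 4 had a log2 change of Rpl39 of -0.56 from 0h to 4h (edgeR, adjusted p = 0.00722) and of 0.72 from 4h to rev (adjusted p = 0.000306). In clone 8 alone these changes were -0.06 and 0.05, with adjusted p of 0.915 and 0.940, and the difference between clones did not pass the test for either comparison (adjusted p = 0.459 and 0.141). As a share of both CPM values, Rpl39l made up 11.1% to 16.4% at 0h, 10.2% to 14.9% at 2h, 15.99% to 31.1% at 4h and 9.64% to 22.6% at rev. The 22.6% belongs to rev clone 8 library 1, with 19 counts of Rpl39l and 65 of Rpl39, and the other 3 libraries of rev reached 12.8% at most.

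Against cells that had never been induced, rev called 2 members higher and none lower, where 10.5% of all genes were called, 5.51% higher and 4.94% lower. Rps10 (chr17:27630418-27636669) and Rps20 (chr4:3831334-3835665) encode proteins of the small subunit that are ubiquitinated on stalled ribosomes. Rps10 was at 57.3, 51.4, 57.8 and 64.7 CPM at 0h and at 72.3, 73.1, 67.8 and 70.4 CPM at rev, with no overlap and a log2 change of 0.30 ± 0.087 (adjusted p = 0.0318). Rps20 was at 206, 183, 191 and 193 CPM at 0h and at 254, 240, 191 and 243 CPM at rev, where clone 8 library 1 overlapped 0h. Its change of 0.26 ± 0.083 log2 had an adjusted p of 0.0482 and was lost in 14 of 16 fits without 1 library. Rps10, which shares 28.7% of its exon length with 2 other annotated genes, was lost in 5 of these, and both were lost with no filter, with a replicate block, with library totals and in clone 8 alone. Without rev clone 8 library 1, 4 members were called, namely Rps10, Rps20, Rps15a and Rpl15, all higher, where 4.93% of all genes were called higher.

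**Figure D4:**
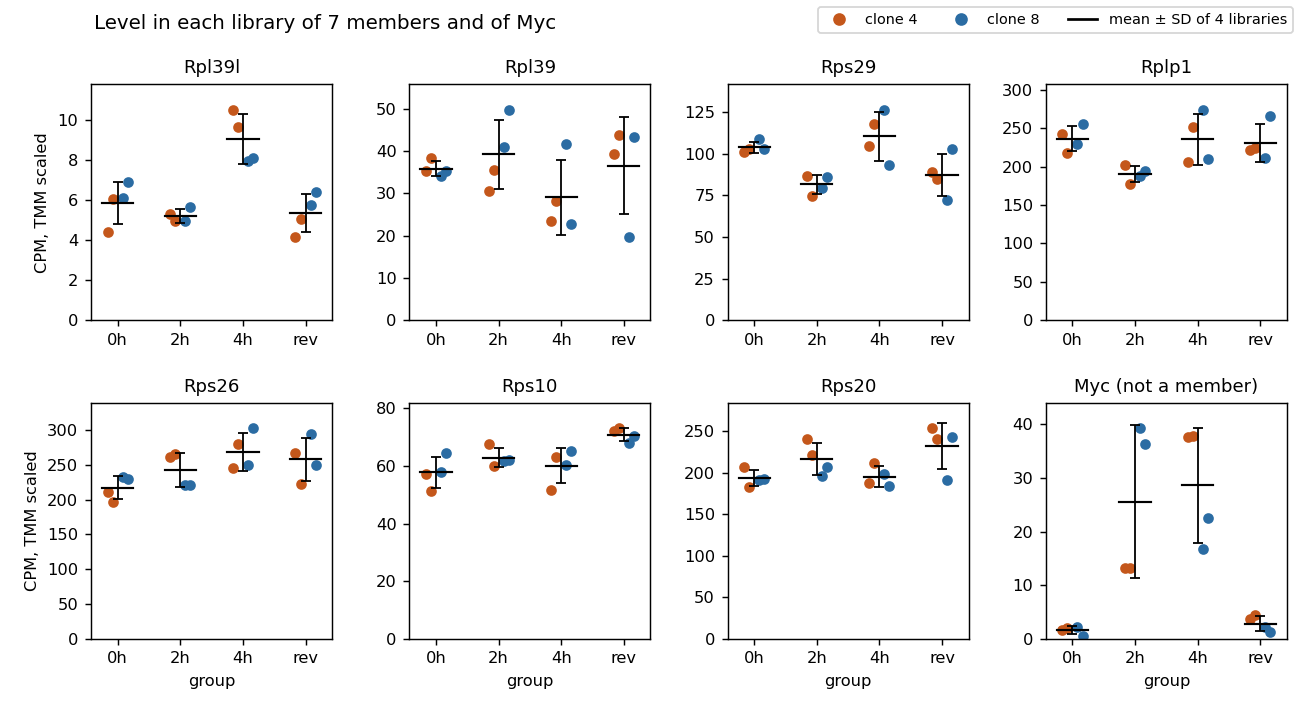
CPM in each library (points, coloured by clone) by group, with the mean and SD of the 4 libraries, for 7 members and for Myc. Rpl39l is high at 4h, Rps29 and Rplp1 are low at 2h, Rps10 is high at rev, Rpl39 is spread widely at 4h and rev, and Myc is high at 2h and 4h.

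The groups 2h and rev, sampled 2 h after an addition to the medium, were set against each other too. No member was called with edgeR or DESeq2, where 1.78% of all genes were called, 0.769% higher and 1.01% lower, and 2 members had an unadjusted p under 0.05. Set together against 0h and 4h, these groups called 5 members, 3 higher and 2 lower, against 17.7% of all genes, 9.73% higher and 8.01% lower. Lower were Rps29 by 0.34 on the log2 scale (SE 0.073, adjusted p = 0.00405) and Rpl39l by 0.47 (SE 0.12, adjusted p = 0.0122). Rps20 was higher by 0.20 ± 0.059 log2 (adjusted p = 0.0220), Rps15a by 0.24 ± 0.075 (adjusted p = 0.0301) and Rps10 by 0.18 ± 0.061 (adjusted p = 0.0419). In 16 fits without 1 library each, Rps29 and Rpl39l were called in all, Rps20 in 14, Rps15a in 6 and Rps10 in 4. Without rev clone 8 library 1 the count was 6, with Rpl39 added as higher, where 17.3% of all genes were called. These sets of 2 groups share their libraries with the comparisons above, so the values are not further evidence for those calls. Whether a factor other than treatment separates 2h and rev from 0h and 4h was not tested.

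As a list, the members had small changes. Their median log2 change was 0.05 at 2h, 0.06 at 4h, 0.04 between 2h and 4h, 0.00 between 4h and rev and 0.06 at rev against 0h, beside 0.00 to -0.01 for all genes. Relative to the median of all genes, the values for 2h were 0.04 under each of 5 scalings and those for 4h 0.06 to 0.07, although the members' own median at 2h ran from -0.03 to 0.15 with the scaling. The median absolute change was 0.09 at 2h and 0.08 at 4h, against 0.23 and 0.21 over all genes. At 2h the 95% interval of the change lay within 0.5 log2 of 0 on both sides for 74 of the 83 members, and at 4h for 71. The median SE was 0.094 for members and 0.16 for all genes at 2h. By role, no gene of the large subunit list was called in any of the 6 comparisons between groups, and the median changes of the large and small subunit lists at 4h were 0.08 and 0.05.

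Subunits with known special roles were among those with no call. Rps6, the substrate of the S6 kinases, stood at 118, 115, 124 and 123 CPM at 0h and at 119, 152, 131 and 164 CPM at 4h, where clone 4 library 1 overlapped 0h. Its log2 change at 4h of 0.23 ± 0.086 had an adjusted p of 0.0820. Without 4h clone 4 library 1 it was called higher at 4h, where 4.59% of all genes were. Rps6 was at 145, 133, 134 and 138 CPM at 2h and at 143, 134, 147 and 140 CPM at rev. These libraries all lay above those of 0h, though neither group called it against 0h. Rpl5 and Rpl11, whose proteins bind MDM2 when ribosome assembly is disturbed, had log2 changes at 4h of 0.02 (95% interval -0.16 to 0.20) and 0.09 (-0.11 to 0.28). Rps19 and Rps14, known from Diamond-Blackfan anaemia and the 5q- syndrome, had 0.10 and -0.04. Rps27a, made as a fusion with ubiquitin, had -0.07, and Rpl10, which completes the large subunit late in its assembly, 0.07. Rpl41, the shortest ribosomal protein, had 0.28 ± 0.13 (adjusted p = 0.185), and Rpl3, Rpsa and Rpl13a -0.06, 0.02 and 0.14. Rps19bp1, the non-subunit, had the next largest positive value at 4h after Rpl39l, 0.40 ± 0.13 log2, with an adjusted p of 0.0552. Of the low paralogs, Rpl22l1 had 0.05 (95% interval -0.49 to 0.58) and Rpl36al -0.11 (-0.89 to 0.66). Changes inside these wide intervals were not detectable at this depth.

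More members were called between the clones than between any 2 groups. The clone comparison had 8 libraries on each side and a median SE of 0.067 for the members. Comparisons of 2 groups had 4 on each side and median SEs of 0.094 to 0.096, so these counts are not on equal terms. Clone 8 had 9 members higher and 1 lower than clone 4 over the 4 groups, against 34.9% of all genes called, 17.1% higher and 17.8% lower, so the members' share of 12.05% is the smaller one. Rpl32 (chr6:115805505-115808747), a protein of the large subunit core, stood at 137, 129, 172, 153, 126, 170, 159 and 144 CPM in the 8 libraries of clone 4. In clone 8 it stood at 220, 230, 229, 273, 241, 244, 214 and 257 CPM. Every clone 8 library lay above every clone 4 library, with a log2 difference of 0.68 ± 0.066 (edgeR, adjusted p = 1.41e-07). Rpl10l (chr12:66283379-66284401) had 7.47 to 12.7 CPM in clone 4 (mean 10.2 ± 1.58, SD, n = 8) and 12.6 to 17.6 CPM in clone 8 (mean 14.9 ± 1.86), a difference of 0.55 ± 0.11 log2 (adjusted p = 0.000413). Rplp0 was at 241 to 322 CPM in clone 4 and 314 to 368 CPM in clone 8, a log2 difference of 0.35 ± 0.056 (adjusted p = 6.72e-05). Rpl10l and Rplp0 overlapped between the clones by 1 library each way.

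**Figure D5:**
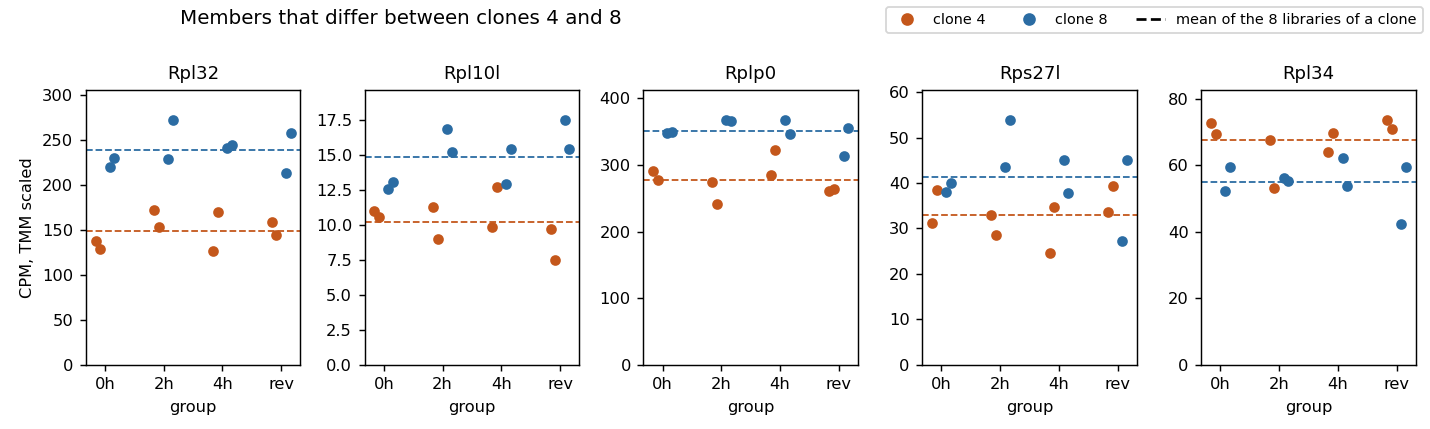
CPM in each library (points, coloured by clone) by group, with the mean of the 8 libraries of each clone as a dashed line, for 5 members that differ between the clones. Rpl32 of clone 8 lies above clone 4 in every group without overlap, and Rpl34 is the member that is lower in clone 8.

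The other members higher in clone 8 were Rps27l by 0.35 log2 (adjusted p = 0.0199, lost without 2h clone 4 library 2 or 2h clone 8 library 2), Rpl7a by 0.21, Rpl29 by 0.20, and Rps2, Rps24 and Rpl27 by 0.18 each. Rps24 was called in 8 of 16 fits without 1 library and Rpl27 in 4, and Rpl27 was also lost with DESeq2 and with no filter. Rpl29 was lost without 0h clone 4 library 2 or rev clone 4 library 2. Rpl34 was lower, with 53.2 to 73.8 CPM in clone 4 and 42.4 to 62.0 CPM in clone 8, by 0.28 on the log2 scale (SE 0.076, adjusted p = 0.00634). In each fit that left out 1 library, Rpl32, Rpl10l, Rplp0, Rpl7a, Rps2 and Rpl34 were called. With library totals in place of TMM, Rpl32 and Rpl10l were the called members. Rpl32 is the only member on chromosome 6, where the 624 genes tested had a median clone difference of 0.16 log2 and 34.8% were called higher in clone 8. On the other autosomes and the X chromosome these medians were -0.07 to 0.06. Whether the copy number of chromosome 6 differs between the clones was not tested.

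Whether the clones differed in their responses was tested as an interaction. For 2h against 0h it was called in 1 member, Rpl28, with a negative sign, against 7.94% of all genes, 2.93% higher and 5.01% lower in clone 8. Rpl28, a large subunit protein, went from 113 and 106 CPM to 154 and 142 CPM in clone 4 and from 128 and 128 CPM to 116 and 126 CPM in clone 8. The change in clone 8 minus that in clone 4 was -0.52 ± 0.17 log2 (edgeR interaction, adjusted p = 0.0474). This call was lost under each of 7 other settings and in 12 of 16 fits without 1 library, and with library totals the value was 0.07. For 4h against 0h no member was called with edgeR or DESeq2, and none had an unadjusted p under 0.05, against 5.72% of all genes called, 2.03% higher and 3.69% lower. For rev against 4h no member was called with either tool, 7 had an unadjusted p under 0.05 and 13.2% of all genes were called, 6.3% higher and 6.89% lower. Without rev clone 8 library 2, which leaves library 1 as the lone rev sample of that clone and assumes that it varies like the others, 13 members were called, all lower, among them Rpl39, Rpl9, Rps21 and Rpl22l1, where the same fit called 8.89% of all genes, 4.52% lower. Each clone was also fitted alone: clone 4 called 7, 6 and 7 members at 2h, at 4h and at rev against 4h, where 20.7%, 19.0% and 24.6% of all genes were called, and clone 8 called 2, 0 and 0, where 17.8%, 6.28% and 6.42% were called.

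Genes that work with the members are given by their counts and medians, and the difference between lists was not tested. Fau and Rack1, which encode ribosomal proteins but do not match the symbol rule, were not called in any comparison between groups, with log2 changes at 4h of 0.12 and -0.01. Of 18 translation factors and other TOP mRNAs, 1 was higher at 2h and 2 at 4h, beside the same 9.49% and 7.35% of all genes. Eef1a1, the elongation factor that delivers tRNA, had 1687 ± 71.5 CPM (SD, n = 4) at 0h and 2191 ± 128 at 2h, a log2 rise of 0.38 (adjusted p = 0.00645). At 4h Pabpc1, the poly(A) binding protein, rose by 0.29 and Eif3f by 0.22 on the log2 scale. Of 77 mitochondrial ribosomal protein genes, 2 were lower at 2h, where 7.48% of all genes were, and 1 was higher at 4h.

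The list of 23 ribosome biogenesis factors, like the other lists, was chosen with earlier results of these data known, so its counts are description only. Of these factors, 6 were higher at 2h, where 9.49% of all genes were, and 12 at 4h, where 7.35% were, and none was lower. Their median log2 change at 4h was 0.31, beside 0.06 for the ribosomal proteins and -0.01 for all genes. Among them, Nop58, a core protein of box C/D snoRNPs, rose by 0.50 log2 (adjusted p = 0.000776), Bysl by 0.50 and Rrn3, an initiation factor of RNA polymerase I, by 0.48. At rev against 4h none of the 23 was called lower or higher. Myc, an activator of both groups of genes, was at 1.61 ± 0.743 CPM (SD, n = 4) at 0h, 25.5 ± 14.2 at 2h, 28.7 ± 10.7 at 4h and 2.85 ± 1.40 at rev. The clones differed in its course between 2h and 4h. In clone 4 Myc went from 13.2 and 13.3 CPM at 2h to 37.6 and 37.8 CPM at 4h. In clone 8 Myc went from 39.3 and 36.4 CPM at 2h to 16.7 and 22.5 CPM at 4h. Its log2 rise at 4h was 4.08 (adjusted p = 1.86e-05) and at rev against 4h it fell by 3.20 (adjusted p = 0.000108). No member other than Rpl39l was both called higher at 4h than at 0h and called lower at rev than at 4h. Of all genes, 7.35% had the first call and 5.1% the second, and the share with both is not given. In clone 8 alone neither change of Rpl39l was called. A link between Rpl39l and Myc was not tested.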

How the data were processed

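RNA-seq was run on 16 libraries of rRNA-depleted total RNA. Raw counts per Ensembl gene ID, as whole numbers in 1 table, were deposited by the authors. The submitters' processing notes name bcl2fastq 2.19.1, STAR 2.5.3a and the build mm10; the counting program, annotation and strand setting are not given in the sources used here. Symbols, lengths and 1-based coordinates come from GENCODE M21 (GRCm38), which matched 52489 of 52636 IDs, and promoter windows from RefSeq (GRCm38.p6). Groups were compared in edgeR 4.0.16 under R 4.3.3 by quasi-likelihood, in a fit of all 16 libraries with group and clone as terms, filterByExpr by group (minimum count 10, minimum total 15; 12742 genes, all 83 members among them), TMM scaling and Benjamini-Hochberg adjustment over all genes tested, at an adjusted p under 0.05. Differences between clones in response were interaction terms over the 8 combinations of group and clone. Errors beside log2 changes are standard errors. CPM values are relative to the kept genes, and SDs of a group include the clones. The members and gene lists were chosen with earlier results of these data known. Named members follow a rule: called members with the largest changes and 1 sign in all 4 libraries numbered alike, and a mean of at least 50 counts; the 2 largest clone differences each way; subunits of known roles and paralog pairs; and the 3 highest and lowest levels per length. Rps15a, Rpl7a, Rpl29, Rps2, Rps24, Rpl27, Rps7, Rpl6, Rps21, Rpl23a, Rpl9 and Rpl15, and of the other lists Nop58, Bysl, Rrn3, Pabpc1 and Eif3f, were named after their values were seen. Alternatives were DESeq2 1.42.0, RLE size factors, library totals with and without the 8 largest features, other filters, no clone term, a replicate block, each clone alone, leaving out each library, and subsets of members. The edgeR test of 2h against 0h was run on simulated counts that held no clone difference. The other comparisons and DESeq2 were not checked in this way. Within a clone and group, no library was a copy of the other: chi-square divided by its degrees of freedom was 1.32 to 4.49. Pairs across clones or groups were not compared in this way.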

Additional observations from a re-analysis of the deposited data

Results flagged for a closer look

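Among 148 combinations of a named member, or of the members' sum, and a group of 4 libraries, 9 had 1 library far from the other 3. Chance gives about 1 in 20, so this number is near what chance alone gives. In 3 of them the low library was rev clone 8 library 1: Rpl22 stood at 95.1 CPM there against 136 to 140 CPM in the others, Rpl5 at 106 against 130 to 131 and Rps19 at 103 against 137 to 144. That library also held the fewest counts outside the 8 largest features (1.30 M); the part of depth in these values was not tested. Single low libraries were also seen for Rps14 at 4h (99.5 CPM in clone 4 library 1, others 139 to 147), Rps19 at 0h (107 CPM in clone 8 library 1, others 120 to 122), Rpl7 at 0h (229 CPM in clone 4 library 2, others 248 to 250), Rpl10 at 0h (117 CPM in clone 4 library 1, others 120) and Rpl36al at 4h (1.07 CPM in clone 8 library 2, others 2.03 to 2.13). Rps19bp1 at 4h was high in clone 4 library 2, at 12.4 CPM against 10.2 to 10.3.

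Rpl28 was the member whose change from 0h to 2h differed between the clones, with a clone 8 minus clone 4 value of -0.52 log2 (edgeR interaction, adjusted p = 0.0474). The adjusted p was 0.0567 to 0.906 over the 7 other settings.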

How the results depend on the processing

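Scaling by library totals instead of TMM moved the median of all genes to 0.11 at 2h, -0.24 at rev against 0h and -0.35 at rev against 2h, and it called 0 members at 2h, at 4h, between 2h and 4h, at rev from 0h and in the pooled contrast of 2h and rev, 1 at rev against 4h, 2 between clones and 7 for the clone difference at rev against 4h. With totals outside the 8 largest features they were 1 at 4h, 1 at rev against 4h, 0 at rev from 0h, 3 for the pooled contrast and 0 for the clone difference at 2h. With no filter, 4 were called at 2h and 7 for the clone difference at rev against 4h. With no clone term they were 0 at 2h, at 4h and at rev from 0h, 1 at rev against 4h and 2 in the pooled contrast. In clone 4 alone they were 7, 6, 7 and 10 at 2h, 4h, rev against 4h and the pooled contrast, and in clone 8 alone 0 at 4h and at rev against 4h, and 1 each at rev against 0h, at rev against 2h and in the pooled contrast. With the subunits alone, 1 was called at 4h and 1 at rev against 4h, and with members under 30% of recurring 50-mers, a choice made after seeing the data, 1 at 2h and 6 between clones; fewer members were counted here. RLE size factors, DESeq2, a filter at 160 counts and the replicate block gave 0 for the clone difference at 2h. The log2 clone difference of Rpl28 at 2h reversed to 0.0698 with library totals. The members' share of counts is 3.03% outside the 8 largest features. The cause of these shifts was not tested. Shares of all genes called are not given for most of these settings. The counts alone therefore do not set the members apart from other genes.

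With a replicate block (clone and library number) in place of the clone term, the counts were 1 at 2h, 1 at 4h, 2 between 2h and 4h, 1 between 4h and rev, 0 between 0h and rev, 0 at rev against 2h, and 3 for the pooled contrast. The numbers do not pair the libraries beyond the clone: deviations correlated at 0.375 for the same clone and number and 0.384 for the same clone and the other number. For clone 8 against clone 4, no paired analysis was possible because the clone lies between blocks.

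Leaving out 1 library at a time gave 0 to 2 members at 2h, 0 to 4 at 4h, 2 to 3 at 4h against 2h, 1 to 3 at rev against 4h, 0 to 4 at rev against 0h, 0 to 0 at rev against 2h, 3 to 6 for the pooled contrast and 7 to 12 between clones. For the clone differences it gave 0 to 2 at 2h, 0 to 0 at 4h and 0 to 13 at rev against 4h. The highest counts at rev against 4h, rev against 0h and the pooled contrast came without rev clone 8 library 1. That fit called 9.41%, 9.4% and 17.3% of all genes in them. Over the 16 fits, 30.9% to 34.6% of all genes were called between clones and 12% to 18.1% in the pooled contrast. At 2h the share was 9.75% to 18.7%, at 4h 7.39% to 14.1%, and from 2h to 4h 5.4% to 13.5%. The members' counts are to be read beside these shares.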
